A study of Mus musculus with 12 samples.

Results

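The genes described here encode the machinery that copies DNA in S phase, from the proteins that mark replication origins to the enzymes that make deoxynucleotides. They were taken by symbol from a list of 49 genes, and all 49 were present among the 54658 genes counted in each library and passed the filter on low counts. Bulk RNA was sequenced from 9 mammary tumours that carried the genotype Trp53R245W/+, and from 3 preparations of epithelium enriched from wild-type (WT) mammary glands of the same cohort. The genotype is a missense change in 1 allele of Trp53, the gene of the tumour suppressor p53, which the series describes as somatic. Both groups came from female mice of the C57BL/6J X BALB/cJ F1 cross. The labels state neither their age, nor how the somatic change was made, nor whether each library stands for 1 animal, so p-values measure the spread between these libraries. Tumours are called by the numbers of their labels (1, 4, 5, 14, 17, 20, 21, 24 and 27) and epithelium libraries by 1, 2 and 3. Genotype, tissue state and the title prefix of the libraries coincide, so their effects cannot be told apart. Values are gene counts scaled to library size (CPM) after trimmed mean of M values scaling, and each log2 fold change (tumours relative to epithelium) has a standard error (SE) and an adjusted p from edgeR's quasi-likelihood test over all genes tested.

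Before S phase, the origin recognition complex (ORC) recruits CDC6 and CDT1, which load rings of MCM2 to MCM7 onto DNA as inactive helicases. At S phase the kinases CDC7-DBF4 and CDK2 convert these rings into active helicases with CDC45 and the GINS complex, and polymerases alpha, delta and epsilon copy the strands behind them. Most genes of this set are transcribed by E2F factors late in G1, and their RNA is a usual marker of dividing cells. E2F targets are held down by the retinoblastoma family and, through p21, by p53.

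Gene counts per library ran from 19695318 to 33600076 in tumours and from 24247566 to 25543872 in epithelium, so that 3 counts corresponded to 0.0893 to 0.152 CPM in tumours and 0.117 to 0.124 CPM in epithelium. All 10 epithelial markers (among them Epcam, Krt8 and Krt14) were detected in both groups, with summed levels of 1880 to 8358 CPM in tumours and 2785 to 3529 CPM in epithelium. Of these 10, Epcam (log2 fold change 1.75, edgeR adjusted p = 0.0233) and Cdh1 (1.54, adjusted p = 0.0465) were called higher and none lower. Their calls held in 9 (Epcam) and 3 (Cdh1) of 12 fits with 1 library left out. The epithelium libraries also carried lymphocyte RNA. The 8 B cell markers summed to 4.53 to 82.1 CPM in tumours and 771 to 1081 CPM in epithelium, and the 10 T and NK cell markers to 3.42 to 35.6 CPM in tumours and 466 to 546 CPM in epithelium, with no marker of either list at 0 throughout a group and all 18 called lower. Summed endothelial markers (6) were 177 to 708 CPM in tumours and 821 to 1046 CPM in epithelium, adipocyte markers (6) 18.0 to 131 CPM in tumours and 339 to 514 CPM in epithelium, and macrophage markers (8) 368 to 2232 CPM in tumours and 797 to 1091 CPM in epithelium. Most of the adipocyte sum in epithelium was Fabp4, with means of 32.5 CPM in tumours and 418 CPM in epithelium. Fabp4 was the only adipocyte marker called (lower). Adipoq (means of 3.85 CPM in tumours and 3.69 CPM in epithelium), Plin1, Lep, Cidec and Plin4 were not called. Of the macrophage markers, Fcgr1 was called higher and Marco lower. The 7 fibroblast markers summed to 1340 to 31783 CPM in tumours (median 2804 CPM) and 3790 to 5775 CPM in epithelium, and none was called. In bulk RNA, fewer cells of a type and less RNA per cell cannot be told apart, and the part of these cell types in the results below was not tested. Alignments outside genes made up 8.08 to 32.3% in tumours and 39.9 to 41.5% in epithelium. Trp53 itself averaged 48.4 ± 19.7 CPM in the tumours and 43.7 ± 1.99 CPM in the epithelium (SD, n = 9 and 3, log2 fold change 0.15, SE 0.37, edgeR adjusted p = 0.799), and counts per gene do not separate its alleles.

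Many replication genes had more RNA in the tumours, though not every component did. Of the 49 genes, 23 passed the test as higher, which is 46.9%, against 8.89% of all 21456 genes tested, and 1 (Orc3) passed as lower, against 11.4% of all genes. In 24 members every tumour lay above every epithelium library, against 10.2% of all genes, and no member had every tumour below, against 14.1%. These shares of all genes are also the background of the counts by functional group below. The log2 fold change was positive in 45 of 49 members, with a median of 1.30 beside 0.17 over all genes tested. The 6 calls that held when any 1 of the 12 libraries was left out were Cdc45, Mcm10, Pold2, Tk1, E2f1 and E2f8. The number called higher depended on the small epithelium group. It was 7, 7 or 8 without epithelium library 1, 2 or 3, when 2.26 to 2.45% of all genes were called higher. The members' median log2 fold change was 1.25 to 1.32 in these fits. Without any 1 tumour the number called higher was between 20 and 28, when 7.72 to 11.6% of all genes were called higher. Without tumour 4, whose RNA stood apart, 26 members were higher and 1 lower, and the share of all genes called higher was also larger, at 11.6%. Short genes had higher fold changes in this comparison, with medians of 0.83 in the shortest of 10 length classes of protein-coding genes and -0.076 in the longest, and the members' median lay above that of their own class in 10 of 10 classes.

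**Figure D1:**
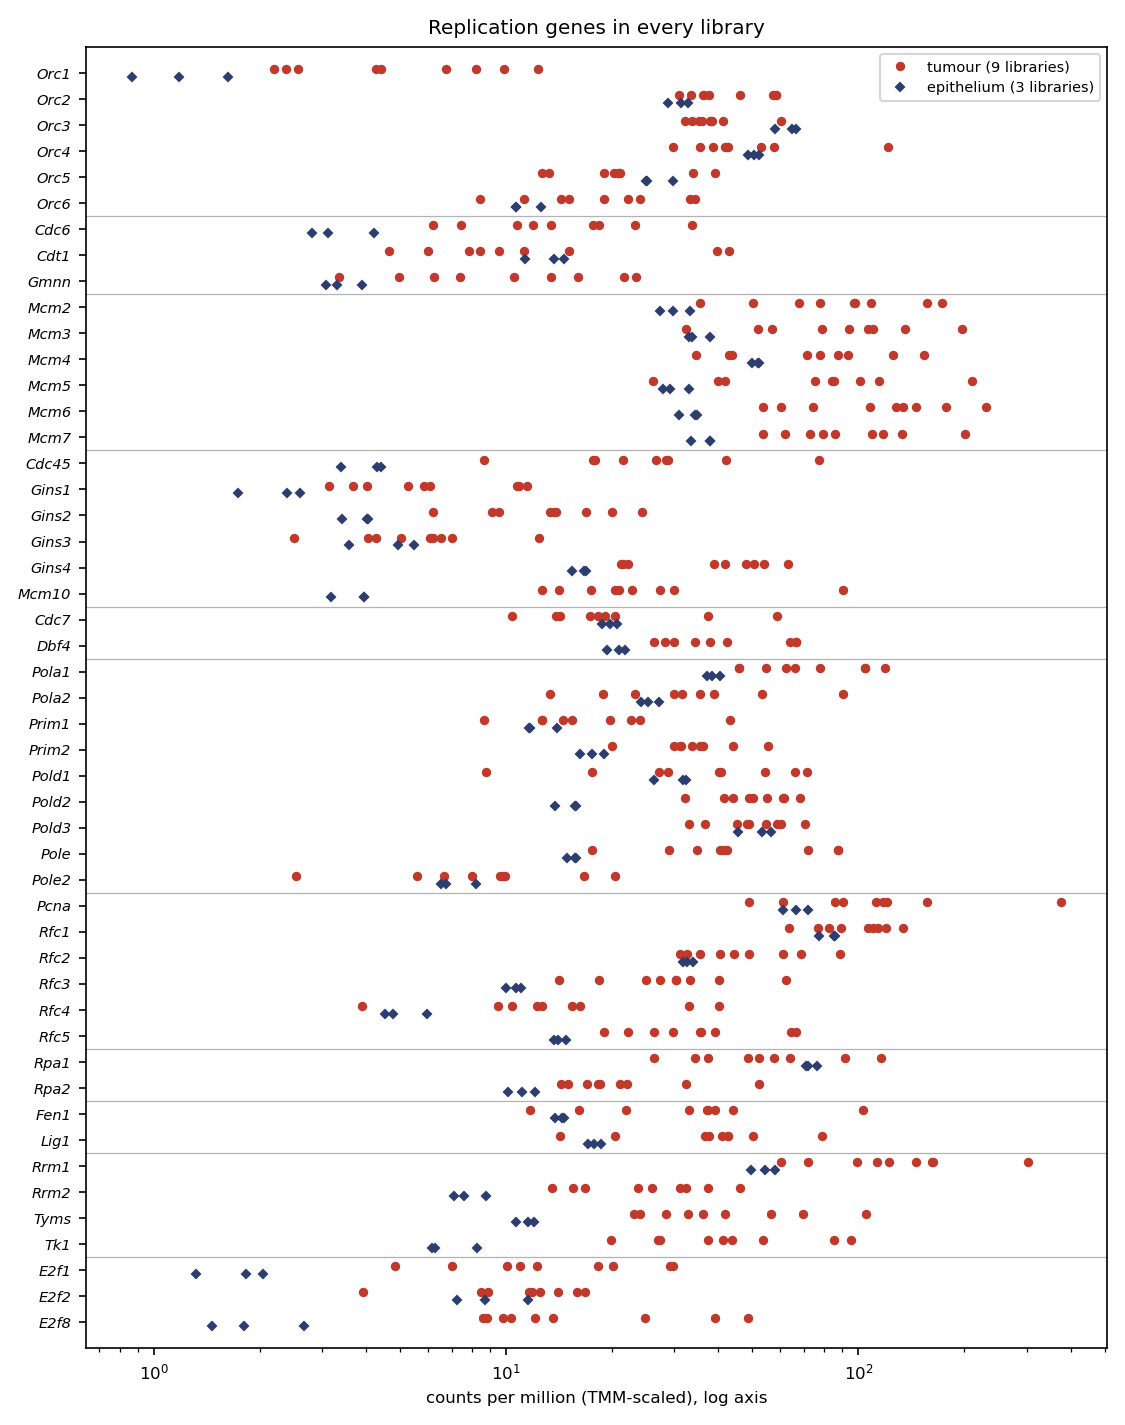
Level of each of the 49 replication genes in every library, in CPM on a log axis, with 9 tumours (red circles) above 3 epithelium libraries (blue diamonds) in each row and lines between functional groups. Red and blue separate fully in 24 rows, among them Cdc45, Mcm10, Tk1, E2f1 and E2f8, while Orc4, Pold3 and Rfc1 overlap.

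**Figure D2:**
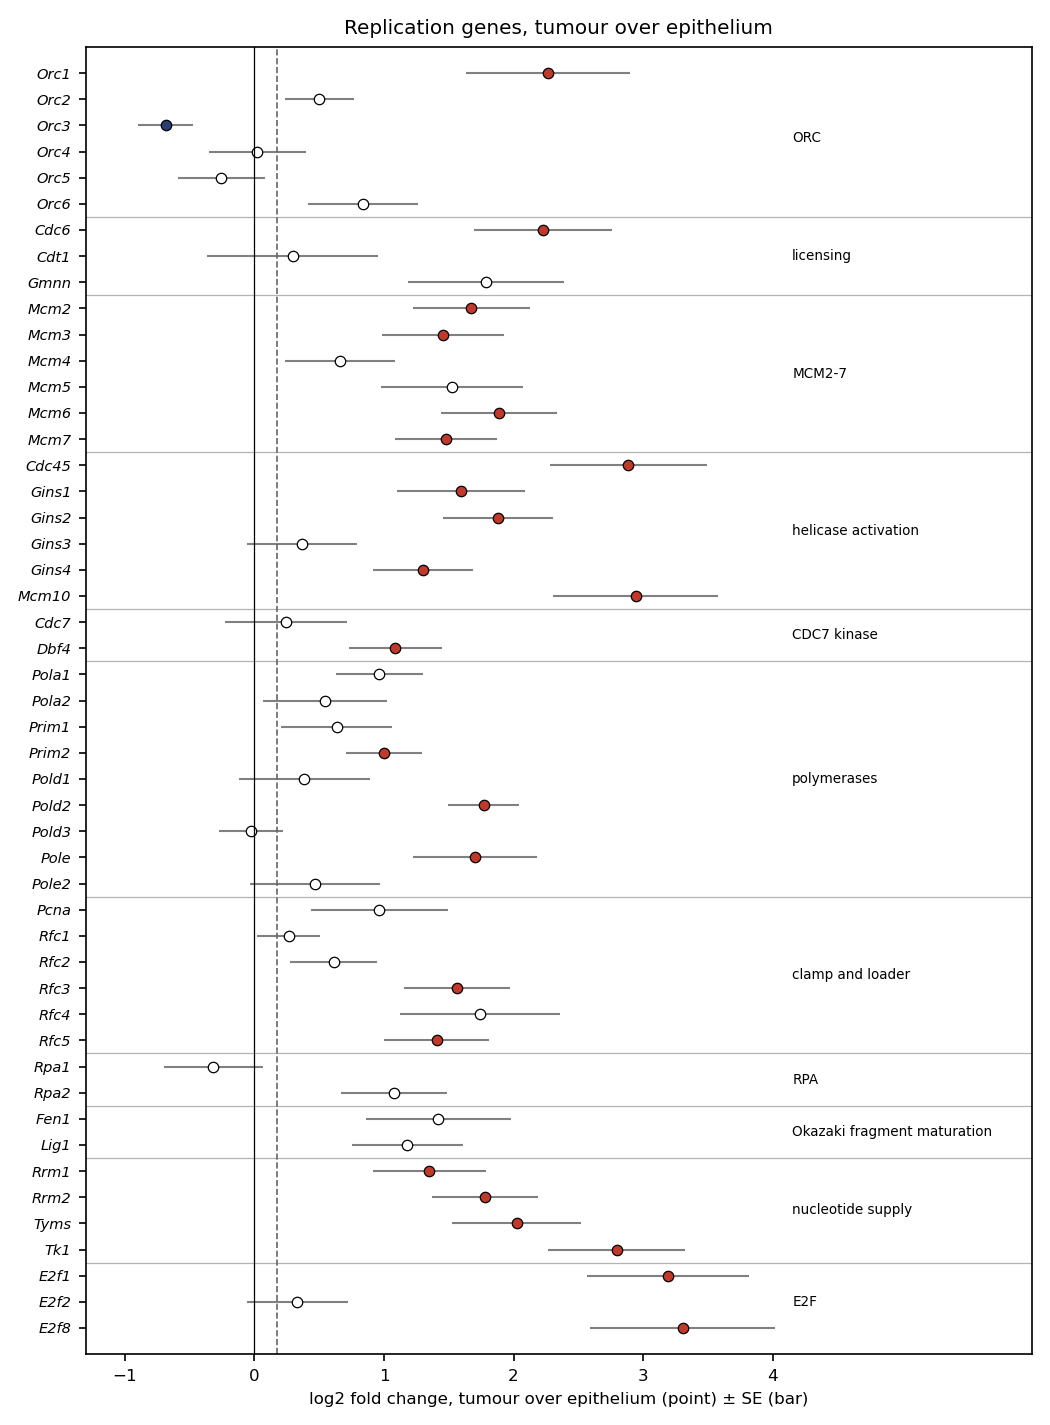
Log2 fold change of tumour over epithelium (points) with its SE (bars) for each gene, filled red where called higher, blue where called lower and white where not called; the dashed line is the median of all genes tested, 0.17. Calls are spread over most groups, and those of nucleotide supply are all filled.

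E2F factors bind sites of the form TTTCGCGC or TTTGGCGC near transcription starts. RefSeq promoter windows of 300 bases (GRCm38.p6, 250 before and 50 after the start) were found for 41 of the 49 members, and 11 of the 41 (26.8%) held such letters on either strand in at least 1 window, beside 1.56% of the 13169 genes tested that had a window. CCAAT on either strand occurred in 24 of 41 members (58.5%) and in 42.1% of the genes tested. The E2F letters were about as frequent in members that rose as in those not called, at 5 of 18 (27.8%) and 6 of 22 (27.3%). Only these 2 forms were searched, so these shares cover neither other forms nor bases outside the windows. The windows of Cdc6 and E2f1, which rose and held no match, lay wholly inside the annotated genes and missed their annotated 5′ ends. Shown are the windows of Mcm6 and Mcm5, the members with the most matches (overlapping matches counted), of Orc1, the only origin subunit that rose, and of Cdt1, which holds a match and was not called, each 5′ to 3′ with the E2F letters of either strand in capitals. They lie at chr1:128359656-128359955 (minus strand), chr8:75109259-75109558 (plus), chr4:108579204-108579503 (plus) and chr8:122567765-122568064 (plus).
Mcm6: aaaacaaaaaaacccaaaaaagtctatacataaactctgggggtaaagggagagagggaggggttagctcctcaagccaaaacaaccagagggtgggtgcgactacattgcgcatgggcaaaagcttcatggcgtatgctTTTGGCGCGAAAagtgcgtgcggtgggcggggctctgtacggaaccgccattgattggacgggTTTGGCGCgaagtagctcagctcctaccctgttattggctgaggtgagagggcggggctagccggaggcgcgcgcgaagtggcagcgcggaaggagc
Mcm5: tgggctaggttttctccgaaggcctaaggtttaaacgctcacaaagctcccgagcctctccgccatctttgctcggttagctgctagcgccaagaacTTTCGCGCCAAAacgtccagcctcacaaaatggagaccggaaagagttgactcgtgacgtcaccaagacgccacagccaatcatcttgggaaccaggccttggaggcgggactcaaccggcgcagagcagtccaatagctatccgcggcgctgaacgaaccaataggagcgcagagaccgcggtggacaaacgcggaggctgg
Orc1: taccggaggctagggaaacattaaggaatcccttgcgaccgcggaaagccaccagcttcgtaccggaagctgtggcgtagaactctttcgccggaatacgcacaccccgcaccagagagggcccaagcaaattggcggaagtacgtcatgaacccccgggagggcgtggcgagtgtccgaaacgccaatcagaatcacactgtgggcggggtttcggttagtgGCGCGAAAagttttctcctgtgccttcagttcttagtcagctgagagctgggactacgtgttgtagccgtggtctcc
Cdt1: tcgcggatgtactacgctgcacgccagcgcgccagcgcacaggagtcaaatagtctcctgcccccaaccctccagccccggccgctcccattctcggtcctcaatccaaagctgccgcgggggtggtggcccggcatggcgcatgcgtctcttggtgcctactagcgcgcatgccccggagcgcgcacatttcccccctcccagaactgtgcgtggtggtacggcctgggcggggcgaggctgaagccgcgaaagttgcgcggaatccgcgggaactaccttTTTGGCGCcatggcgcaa
Mcm6 had 3 matches, 2 of which overlap on opposite strands, Mcm5 had 2 that overlap in the same way, and Orc1 and Cdt1 had 1 each. The match of Orc1 began 27 bases before the annotated start and that of Cdt1 32 bases after it.

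Of the 6 genes of origin recognition, Orc1 was called higher, Orc3 lower and the other 4 were not called. Orc1 encodes the subunit whose level follows the cell cycle, and its RNA was 2.19 CPM in the lowest tumour (4), 4.42 CPM in the median and 12.3 CPM in the highest (24), against 1.18, 0.868 and 1.62 CPM in the epithelium libraries. The groups did not overlap (log2 fold change 2.27, SE 0.63, edgeR adjusted p = 0.0245). Orc3, a core subunit, was the only member that fell, with 32.2 to 60.1 CPM in tumours (median 38.0) and 64.7, 58.1 and 66.5 CPM in epithelium (log2 fold change -0.68, SE 0.22, adjusted p = 0.0396). Tumour 20 was the 1 tumour that reached the epithelium range, and the other 8 lay below it. Orc4, another core subunit, was 29.8 CPM in the lowest tumour (14), 42.2 CPM in the median and 121 CPM in tumour 4, against 52.3, 50.5 and 48.7 CPM in epithelium (0.024, SE 0.37, adjusted p = 0.970). Orc2 (0.50), Orc5 (-0.25) and Orc6 (0.84) were not called, and 29.8% of the exonic bases of Orc2 overlap Nif3l1 on the other strand. On a scale of CPM per kilobase of exon, which allows levels to be compared between genes, Orc1 ran from 0.629 to 3.54 over the 9 tumours and from 0.250 to 0.466 over the epithelium libraries. It was the lowest ORC gene in 3 of 3 epithelium libraries and in 8 of 9 tumours, the exception being tumour 24, where Orc5 was lowest. Leaving out any 1 of the epithelium libraries ended the calls of Orc1 (adjusted p up to 0.119) and Orc3 (up to 0.155), and Orc3 also without tumour 1, 5, 14, 17, 24 or 27.

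Of the 3 genes of origin licensing Cdc6 rose. Cdc6, the ATPase that joins ORC to load the MCM ring, was 6.20 CPM in the lowest tumour (4), 13.4 CPM in the median and 33.6 CPM in the highest (24), against 3.11, 2.81 and 4.22 CPM in epithelium. Every tumour was above epithelium (log2 fold change 2.23, SE 0.53, edgeR adjusted p = 0.0110, and up to 0.0666 without epithelium library 1 or 2). Cdt1, the partner that brings the MCM ring, was 4.65 CPM in tumour 4, 9.57 CPM in the median tumour and 43.0 CPM in tumour 1, against 13.7, 14.6 and 11.3 CPM in epithelium. Tumours 1 and 24 (39.8 CPM) were high and 6 of 9 tumours lay below every epithelium library, so the groups overlapped on both sides (0.30, SE 0.66, adjusted p = 0.777). Gmnn encodes geminin, which blocks CDT1 once S phase has begun. It was 3.35 CPM in tumour 21, 10.6 CPM in the median and 23.3 CPM in tumour 4, against 3.91, 3.30 and 3.07 CPM in epithelium. Of 9 tumours 8 exceeded all epithelium libraries, with a fold change just short of a call (1.79, SE 0.60, adjusted p = 0.0514, and 0.0235 to 0.0418 without tumour 14 or 21). The ratio of Cdt1 to Gmnn in CPM per kilobase was 0.0929 to 1.76 in tumours (median 0.841) and 1.63, 2.06 and 1.72 in epithelium, and it lay below all epithelium libraries in 8 of 9 tumours.

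The helicase ring was raised in most subunits. Mcm2, Mcm3, Mcm6 and Mcm7 of the 6 ring genes passed as higher. Mcm6 was 53.5 CPM in the lowest tumour (21), 128 CPM in the median and 230.5 CPM in the highest (24), against 34.8, 30.9 and 34.3 CPM in epithelium (log2 fold change 1.89, SE 0.45, edgeR adjusted p = 0.0106). Mcm2 was 35.4 CPM in tumour 4, 97.3 CPM in the median and 173 CPM in tumour 24, against 29.7, 27.3 and 33.2 CPM in epithelium (1.67, SE 0.45, adjusted p = 0.0204). In both genes all tumours lay above all epithelium libraries, tumour 4 by little in Mcm2. Mcm4 was 34.5 CPM in tumour 21, 77.8 CPM in the median and 154 CPM in tumour 24, against 51.9, 52.4 and 49.8 CPM in epithelium, with overlapping groups (0.66, SE 0.42, adjusted p = 0.277). Mcm3 (1.46, adjusted p = 0.0452) and Mcm7 (1.48, adjusted p = 0.0187) rose, and Mcm5 had a fold change of 1.53 with an adjusted p of 0.0646, or 0.0291 to 0.0481 without tumour 4 or 21. Per kilobase of exon, Mcm4 was the highest and Mcm2 the lowest of the 6 genes in 3 of 3 epithelium libraries, the highest being 2.91 to 3.72 times the lowest. That ratio was 1.60 to 3.81 in tumours (median 2.15), and Mcm2 was the lowest in 6 of 9. Lengths here count every annotated exon, so these levels are approximate. The calls of all 4 risen genes ended when any 1 of the epithelium libraries was left out (adjusted p at most 0.157), and that of Mcm3 also without tumour 1, 5, 17 or 20.

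**Figure D3:**
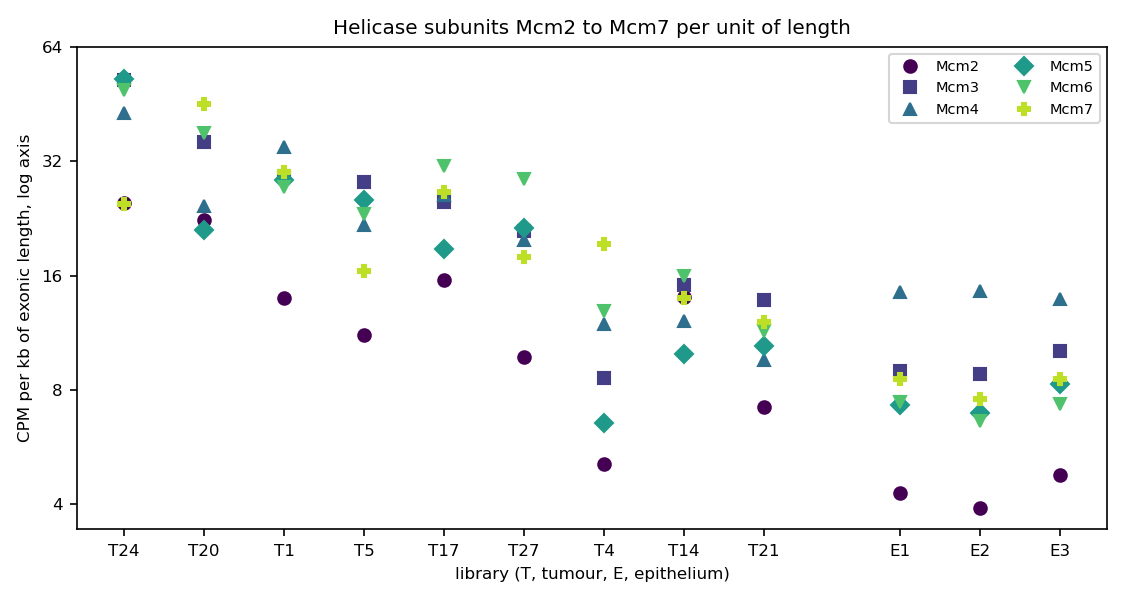
CPM per kilobase of exonic length (log axis) of the 6 ring subunits in each tumour (T, ordered by its median over the 49 genes) and each epithelium library (E). Mcm4 stands above the other subunits in E1, E2 and E3 at 13.9 to 14.6, and the subunits lie closer together in most tumours.

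Genes that turn the loaded ring into a moving helicase showed some of the largest changes. Of 6 genes 5 rose, all without overlap between the groups. Of all genes tested, 8.89% were called higher and 10.2% had every tumour above every epithelium library. Mcm10, an initiation factor on chromosome 2 (4989714 to 5012791), was 12.7 CPM in the lowest tumour (4), 20.95 CPM in the median and 90.2 CPM in tumour 24, against 3.18, 3.96 and 3.95 CPM in epithelium (log2 fold change 2.94, SE 0.64, edgeR adjusted p = 0.0064). Cdc45, the helicase cofactor on chromosome 16 (18780447 to 18811987), had 8.65 to 77.4 CPM in tumours and 3.40 to 4.43 CPM in epithelium (2.89, SE 0.61, adjusted p = 0.0054). Gins3, 1 of the 4 subunits of the GINS complex, was not called. It was 2.50 CPM in tumour 14, 6.09 CPM in the median and 12.4 CPM in tumour 24, against 4.95, 3.58 and 5.47 CPM in epithelium (0.37, SE 0.43, adjusted p = 0.563). Gins1 (1.59), Gins2 (1.88) and Gins4 (1.30) rose. Gins2 shares 67.3% of its exonic bases with Gse1 on the opposite strand, and the labels do not state whether counting used strand. Gins1 and Gins4 lost their calls when any 1 of the epithelium libraries was left out (adjusted p at most 0.160 and 0.128), Gins1 also without tumour 24, and Gins2 without epithelium library 3 (adjusted p = 0.0547).

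The kinase that fires origins has 2 parts, the catalytic subunit Cdc7 and its activator Dbf4. Dbf4 was called higher and Cdc7 was not called. Dbf4 was 26.3 CPM in the lowest tumour (21), 37.8 CPM in the median and 66.6 CPM in the highest (20), against 20.96, 21.8 and 19.3 CPM in epithelium, without overlap (log2 fold change 1.09, SE 0.36, edgeR adjusted p = 0.0474). Cdc7 was 10.4 CPM in tumour 4, 18.2 CPM in the median and 58.7 CPM in tumour 20, against 20.6, 19.7 and 18.7 CPM in epithelium (0.25, SE 0.47, adjusted p = 0.741). Tumours 20 and 24 were the only ones in which Cdc7 exceeded every epithelium library. Per kilobase, the ratio of Dbf4 to Cdc7 was 0.544 to 1.60 in tumours and 0.488, 0.532 and 0.495 in epithelium. Dbf4 was no longer called when any 1 of the epithelium libraries was left out, or tumour 1, 5, 17, 20 or 24 (adjusted p up to 0.175).

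Of 9 polymerase and primase genes 3 rose, Pold2, Pole and Prim2. Differences in fold change between subunits were not tested, here or in the other complexes. Pold2, the second subunit of polymerase delta on chromosome 11 (5872180 to 5878292), had the smallest adjusted p of all members. It was 32.2 CPM in the lowest tumour (27), 50.2 CPM in the median and 68.1 CPM in the highest (1), against 15.7, 13.8 and 15.7 CPM in epithelium (log2 fold change 1.77, SE 0.27, edgeR adjusted p = 0.00068). Every tumour lay well above every epithelium library. In the same enzyme the catalytic subunit Pold1 was not called, with 8.75 to 71.4 CPM in tumours and 26.3 to 32.4 CPM in epithelium (0.39, SE 0.51, adjusted p = 0.612). Pold3 was 33.1 CPM in tumour 21, 48.9 CPM in the median and 70.6 CPM in tumour 24, against 56.5, 45.5 and 53.2 CPM in epithelium (-0.029, SE 0.25, adjusted p = 0.944). In polymerase epsilon the catalytic subunit Pole rose (17.5 to 87.6 CPM in tumours, 14.8 to 15.8 CPM in epithelium, 1.70, SE 0.48, adjusted p = 0.0243), and Pole2 did not pass (0.47, adjusted p = 0.531). The ratio of Pole2 to Pole per kilobase was below every epithelium library in 8 of 9 tumours, the exception being tumour 4. Of the primase pair, Prim2 rose (1.00, SE 0.29, adjusted p = 0.0295) and Prim1 did not pass (0.63, SE 0.43, adjusted p = 0.305). Pola1 and Pola2, of polymerase alpha, had fold changes of 0.96 (adjusted p = 0.0585, or 0.0373 to 0.0444 without tumour 14 or 21) and 0.54 (SE 0.48). Pole and Prim2 lost their calls when any 1 of the epithelium libraries was left out (adjusted p at most 0.105 and 0.130).

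The sliding clamp and its loader rose in part. Rfc3 (14.2 to 62.1 CPM in tumours, 9.97 to 11.0 CPM in epithelium, log2 fold change 1.56, SE 0.41, edgeR adjusted p = 0.0178) and Rfc5 (1.41, adjusted p = 0.0282) were the 2 of 6 genes called. Rfc4, another small loader subunit, was 3.89 CPM in tumour 21, 12.6 CPM in the median and 40.3 CPM in tumour 4, against 4.53, 4.76 and 5.98 CPM in epithelium (1.74, SE 0.61, adjusted p = 0.0615). Tumour 21 lay below all epithelium libraries and the other 8 above, and without tumour 21 Rfc4 passed (adjusted p = 0.0236). Rfc1, the large subunit, was 63.6 CPM in tumour 5, 107 CPM in the median and 134 CPM in tumour 20, against 85.2, 77.3 and 85.9 CPM in epithelium (0.27, SE 0.24, adjusted p = 0.453). Pcna encodes the clamp and is a common marker of proliferation, and it was not called. It was 49.0 CPM in tumour 21, 112 CPM in the median and 375 CPM in tumour 4, against 66.7, 71.9 and 61.1 CPM in epithelium (0.96, SE 0.53, adjusted p = 0.207). Tumour 4 stood far above the next tumour (157 CPM). Rfc2 had a fold change of 0.61 and was not called. Rfc3 and Rfc5 lost their calls when any 1 of the epithelium libraries was left out (adjusted p at most 0.0848 and 0.117).

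No member of single-strand binding or of Okazaki fragment joining was called. Rpa2, the middle subunit of replication protein A, was 14.3 CPM in tumour 4, 18.4 CPM in the median and 52.1 CPM in tumour 24, against 11.1, 10.1 and 12.1 CPM in epithelium, without overlap (log2 fold change 1.08, SE 0.41, edgeR adjusted p = 0.0798). Rpa1, the large subunit, was 26.3 CPM in tumour 4, 52.3 CPM in the median and 116 CPM in tumour 24, against 72.0, 76.4 and 70.8 CPM in epithelium (-0.32, SE 0.38, adjusted p = 0.582). Rpa1 was below every epithelium library in 7 of 9 tumours. Fen1, the nuclease that trims the fragments, was 11.7 CPM in tumour 4, 37.1 CPM in the median and 103 CPM in tumour 24, against 14.6, 13.8 and 14.4 CPM in epithelium (1.42, SE 0.56, adjusted p = 0.0881). Lig1, the ligase that seals them, was 14.2 CPM in tumour 4, 40.9 CPM in the median and 78.5 CPM in tumour 24, against 17.8, 17.1 and 18.6 CPM in epithelium (1.18, SE 0.43, adjusted p = 0.0664). In both genes tumour 4 was the 1 tumour below epithelium and the other 8 lay above. Without tumour 4 both passed (adjusted p = 0.0450 for Fen1 and 0.0194 for Lig1), and Lig1 also without tumour 21 (adjusted p = 0.0409). Fen1 shares 84.2% of its exonic bases with Tmem258 and Gm10143 on the other strand.

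Every member of deoxynucleotide supply rose, 4 of 4, with no overlap between the groups. Over all genes tested, 8.89% were called higher and 10.2% had every tumour above every epithelium library. Outside the members, 5 of 10 further nucleotide genes rose and 1 fell. Tk1, the thymidine kinase of S phase on chromosome 11 (117815526 to 117826092), was 19.8 CPM in the lowest tumour (17), 41.2 CPM in the median and 95.4 CPM in the highest (1), against 6.26, 6.15 and 8.27 CPM in epithelium (log2 fold change 2.79, SE 0.53, edgeR adjusted p = 0.0027). Ribonucleotide reductase makes deoxynucleotides from ribonucleotides. Its small subunit Rrm2 was 13.5 CPM in tumour 14, 25.9 CPM in the median and 46.1 CPM in tumour 24, against 7.61, 7.12 and 8.78 CPM in epithelium (1.78, SE 0.41, adjusted p = 0.0091). Its large subunit Rrm1 was 60.2 CPM in tumour 21, 122 CPM in the median and 302 CPM in tumour 24, against 58.1, 49.7 and 54.2 CPM in epithelium (1.35, SE 0.44, adjusted p = 0.0440). Tumour 21 was close to epithelium in Rrm1 and clear of it in Rrm2. Tyms, thymidylate synthase, rose as well (23.0 to 105 CPM in tumours, 10.6 to 12.02 CPM in epithelium, 2.02, SE 0.50, adjusted p = 0.0128). Rrm1 and Tyms lost their calls when any 1 of the epithelium libraries was left out (adjusted p at most 0.160 and 0.0687), Rrm1 also without tumour 5, 17, 20 or 27, and Rrm2 without epithelium library 1 or 2 (adjusted p up to 0.0570).

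The largest fold changes of the set were those of E2F factors. E2f8, a repressor that E2F1 itself induces, lies on chromosome 7 (48866429 to 48881596). It was 8.57 CPM in the lowest tumour (21), 12.1 CPM in the median and 48.5 CPM in the highest (1), against 1.80, 1.46 and 2.67 CPM in epithelium (log2 fold change 3.30, SE 0.71, edgeR adjusted p = 0.0063). E2f1, the activator on chromosome 2 (154559407 to 154569892), was 4.83 CPM in tumour 4, 12.3 CPM in the median and 29.8 CPM in tumour 24, against 2.04, 1.32 and 1.82 CPM in epithelium (3.19, SE 0.62, adjusted p = 0.0035). The groups were well apart in both. E2f2, another activator, was 3.92 CPM in tumour 4, 11.8 CPM in the median and 16.7 CPM in tumour 24, against 8.72, 7.26 and 11.5 CPM in epithelium (0.33, SE 0.39, adjusted p = 0.567), and the groups overlapped.

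Genes that act beside these members, from 4 lists, were also counted. Of 60 such genes 24 were higher and 3 lower (median log2 fold change 1.05), beside 8.89% of all genes higher and 11.4% lower, which is also the background of the smaller lists that follow. Among 29 further fork and initiation factors 13 rose and 1 fell. Top2a, the topoisomerase of dividing cells, had 305 ± 148 CPM in tumours against 51.1 ± 12.7 CPM in epithelium (SD, n = 9 and 3, as in the rest of the paragraph, log2 fold change 2.58, SE 0.43, edgeR adjusted p = 0.0012). Chaf1a, the histone chaperone subunit that follows the fork, had 39.5 ± 20.3 CPM in tumours against 6.25 ± 0.38 CPM in epithelium (2.66, adjusted p = 0.0027), and Donson, a factor of fork assembly and stability, fell, with 10.4 ± 3.54 CPM in tumours against 25.9 ± 1.56 CPM in epithelium (-1.31, SE 0.29, adjusted p = 0.0067). Of 4 small subunits Pole3 rose (1.46, adjusted p = 0.0043). Among 10 further nucleotide genes 5 rose, with Dut (1.81) and Dctpp1 (2.82), which clear unwanted nucleotides, and Samhd1, which degrades deoxynucleotides and is abundant in leukocytes, fell (-1.21, SE 0.35, adjusted p = 0.0273). Of 17 genes of G1 to S control 5 rose and 1 fell. Ccna2, cyclin A2, had 101 ± 53.4 CPM in tumours against 10.8 ± 3.52 CPM in epithelium (3.22, SE 0.51, adjusted p = 0.00088), Ccne2, cyclin E2, rose (2.73), and Rbl2, the retinoblastoma relative p130, fell (-0.90, adjusted p = 0.0388). The kinase partner Cdk2 averaged 33.2 ± 11.2 CPM in tumours, against 33.3 ± 2.55 CPM in epithelium, and was not called (SE 0.34, adjusted p = 1.00). Dut, Dctpp1, Samhd1 and Rbl2 lost their calls when any 1 of the epithelium libraries was left out (adjusted p at most 0.0983, 0.0975, 0.106 and 0.142), Rbl2 also without tumour 14 or 24, and Ccne2 without epithelium library 2 or 3 (adjusted p up to 0.0616).

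The tumours differed widely from each other. Tumour 24 was the highest of the 9 in 28 of 49 genes and among the top 3 in 42. Tumour 21 was the lowest in 19 and among the bottom 3 in 43. The median ratio to the epithelium mean over the 49 genes was 1.73 (log2) in tumour 24, 1.49 in tumour 20, 1.34 in tumour 1, 1.08 in tumour 5, 0.96 in tumour 17, 0.94 in tumour 27, 0.84 in tumour 4, 0.70 in tumour 14 and 0.28 in tumour 21. All 9 were thus above epithelium by this measure, with 30 members (tumour 21) to 46 members (tumour 24) above every epithelium library. Neither measure was taken over all genes in single tumours. In the comparison of the groups, 56.4% of genes tested had a positive fold change. Whether the low values of tumour 21 differ from such a background was not tested. The proliferation marker Mki67 was 1818 CPM in tumour 24, 1045 CPM in tumour 20 and 202 CPM in tumour 21, the lowest, against 62.1, 70.8 and 111 CPM in epithelium (log2 fold change 2.96, SE 0.68, edgeR adjusted p = 0.0090, or 0.0554 to 0.0596 without epithelium library 1 or 2). Tumour 21 also had 31783 CPM in the 7 fibroblast markers, against 1340 to 5775 CPM in the 8 other tumours. Its epithelial marker sum was the lowest of the tumours (1880 CPM), and its macrophage (2232 CPM), B cell (82.1 CPM) and T and NK cell (35.6 CPM) sums were the highest. Tumour 24 had the lowest T and NK cell (3.42 CPM), B cell (4.53 CPM) and endothelial (177 CPM) sums of the tumours. The epithelial marker sums next above that of tumour 21 were those of tumour 24 (2191.5 CPM) and tumour 20 (2734 CPM). The highest was that of tumour 27 (8358 CPM). Gene counts were 21936503 in tumour 21 and 26044794 in tumour 24. The part of other cell types and of depth in this order was not tested.

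**Figure D4:**
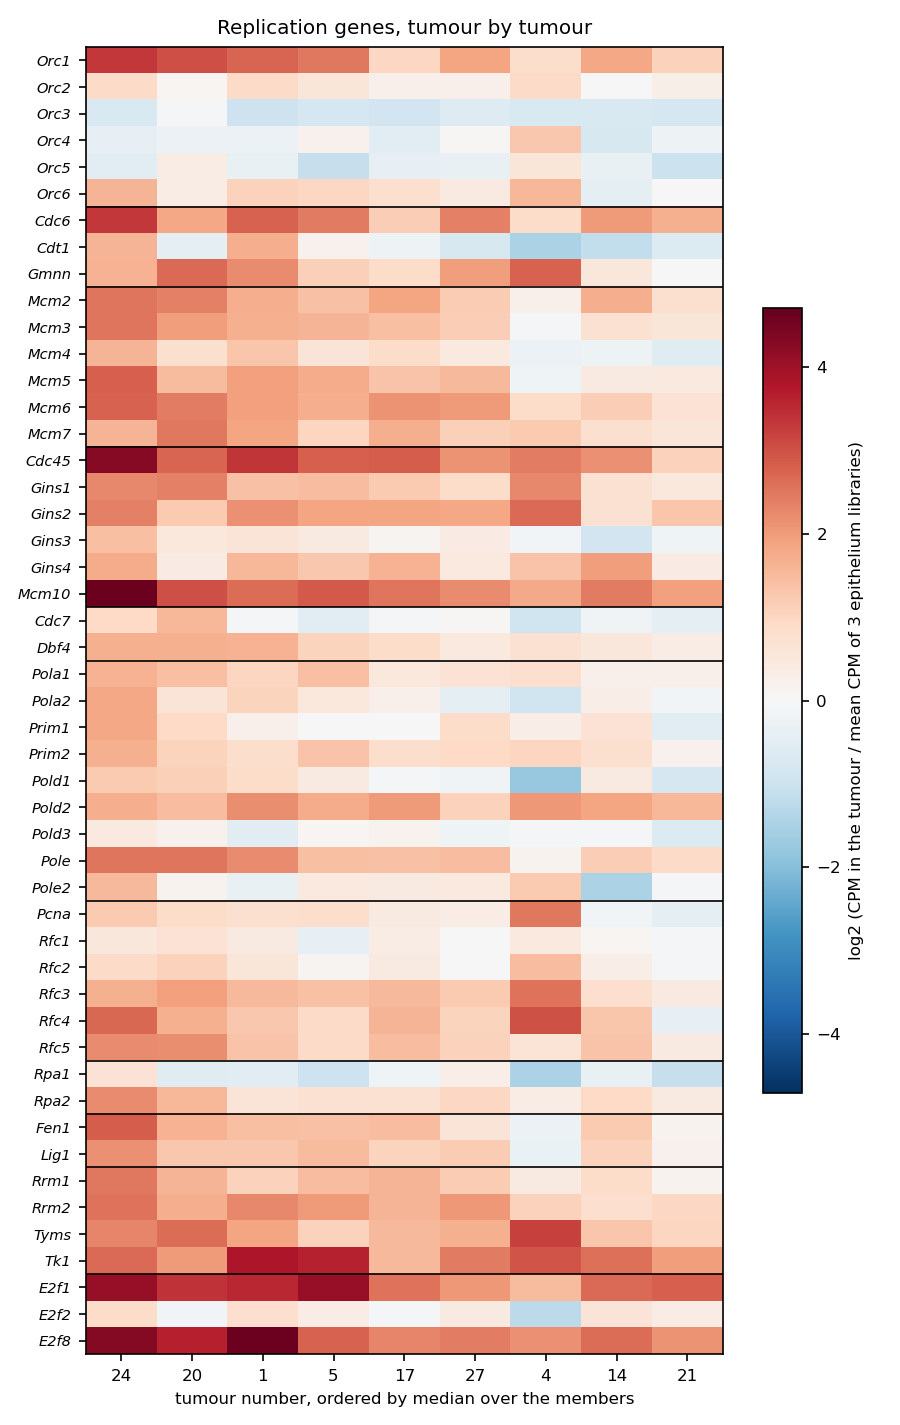
Log2 ratio of the CPM in each tumour to the mean CPM of 3 epithelium libraries for each gene (rows, grouped by function), with tumours ordered by their median over the genes. Red (higher than epithelium) is deepest in tumour 24, palest in tumour 21, and tumour 4 mixes deep red (Pcna, Rfc4, Tyms, Gmnn) with blue (Cdt1, Pold1, E2f2, Rpa1).

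Tumour 4 was an exception to a single ordering. It was the highest tumour in 9 members (Orc4, Orc5, Gmnn, Gins2, Pcna, Rfc2, Rfc3, Rfc4 and Tyms) and the lowest in 17, among them Mcm2, Mcm3, Mcm5, Fen1, Lig1, Pold1, E2f1 and E2f2. Its mean rank among the 9 tumours, where 1 is the highest, was 2.50 over the clamp and loader genes, and 8.00 over the ring, 8.67 over the E2F genes and 9.00 over both RPA and Okazaki genes. Pcna in tumour 4 was 1.90 (log2) above the median of the 8 other tumours, and Pold1 was 2.20 below it (a difference of -2.20). In tumour 4, 51.97% of alignments mapped to more than 1 place, against 17.1 to 27.2% in the 8 other tumours. Rn7sk, a small nuclear RNA, took 22.6% of its gene counts, against 1.76 to 5.26%, and mitochondrial genes 11.2%, against 1.30 to 3.43%. Its deviation from the other tumours was lower in transcripts of higher GC content, with a Spearman rho of -0.52 across the 49 members and -0.31 across 15599 protein-coding genes, which share 1 library and are not independent. For the 8 other tumours this rho lay between -0.29 and 0.41 across members and between -0.07 and 0.20 across all. The members in which tumour 4 was highest had a median GC of 45.3% and those in which it was lowest 51.7%. The part of GC content in the values of tumour 4 was not tested. With a GC trend removed from each library, an alternative chosen after seeing the data, 24 members were called higher and none lower. In that fit 8.76% of all genes were called higher.

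**Figure D5:**
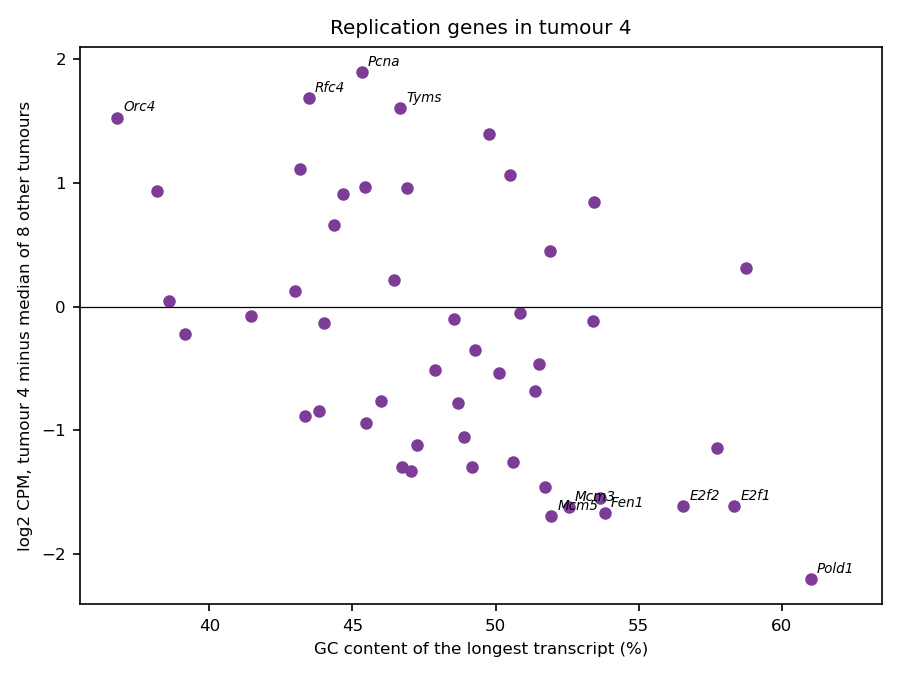
Log2 CPM of each of the 49 genes in tumour 4 minus the median of the 8 other tumours, plotted against the GC content (%) of the longest transcript of the gene. Pcna, Rfc4 and Tyms sit highest, and GC-rich Pold1, E2f1 and E2f2 sit at the lower right.

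Across the 9 tumours, 6 pairs of genes were compared on log2 CPM, with two-sided exact permutation tests adjusted over the 6. Mcm2 followed Mki67 (Pearson's r = 0.82, exact permutation p = 0.00812, adjusted 0.0449; Spearman's rho = 0.87, p = 0.00451, adjusted 0.0271). Without tumours 4 and 21, the 2 farthest from the median of Mcm2, r was 0.90 (adjusted exact p = 0.0369) and rho was 0.89, which no longer passed (adjusted exact p = 0.0738). With relative log expression scaling rho was 0.77 and did not pass either (adjusted exact p = 0.128), while r did (0.82, adjusted exact p = 0.0422). Pcna and Mki67 did not pass (r = 0.29, rho = 0.38, exact p = 0.431 and 0.313, adjusted 0.518 and 0.375), and r was 0.58 without tumours 4 and 21. Rrm1 and Rrm2, subunits of 1 enzyme, had r = 0.76 (exact p = 0.0150, adjusted 0.0449) and rho = 0.62 (p = 0.0857, adjusted 0.171). Without tumours 21 and 24, the 2 farthest from the median of Rrm1, r was 0.52 over 7 tumours and did not pass (adjusted exact p = 0.343), so the relation was called only with those tumours included. Dbf4 and Cdc7 (r = 0.69, exact p = 0.0381; rho = 0.53, p = 0.148) and E2f1 and E2f8 (r = 0.70, exact p = 0.0401; rho = 0.73, p = 0.0311) missed the threshold after adjustment (0.0602 for both r, 0.221 and 0.0934 for rho), and r was 0.16 without tumours 20 and 24 and 0.56 without tumours 4 and 24. Cdt1 and its inhibitor Gmnn had r = 0.095 and rho = -0.017 (exact p = 0.800 and 0.982, the same after adjustment), and r was -0.29 without tumours 1 and 24.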

How the data were processed

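Each of the 12 libraries (9 tumour, 3 epithelium) came as deposited counts per gene symbol, whole numbers the authors did not normalize. RNA was column-purified total RNA made into stranded libraries, per the labels' protocols. Upstream, the submitters' processing notes list HTSeq 0.11.0, TopHat2 2.1.1 and FastQC 0.11.8, with GRCm38 as build. The labels and notes state neither the annotation release nor the strand setting. Summary rows of the counter were kept out of totals. Of 54658 genes, 54106 matched GENCODE M21 by symbol for positions, exonic length and transcript GC content. No library was a copy of another (smallest chi-square per degree of freedom 26.65 within epithelium and 243.4 within tumours).

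The main test was edgeR 4.0.16 in R 4.3.3 (low counts removed with filterByExpr, scaling by trimmed mean of M values, robust quasi-likelihood F test with group as the one factor). A call is an adjusted p below 0.05 (Benjamini-Hochberg, 21456 genes). SE was taken as the size of the log2 fold change divided by the root of F. Log2 CPM used a prior count of 2. Alternatives used limma 3.58.1, DESeq2 1.42.0, other scalings and filters, length or GC offsets, and each library left out. The pipeline was tested on simulated data. Python 3.11.15 with scipy 1.17.1 and matplotlib 3.10.9 did the rest. All 49 members are named; full values are given for the members with the largest and smallest fold change in each functional group and for Mcm2, Pcna, Cdc6, Cdt1, Gmnn, E2f1 and Rrm2, and from each other list the 2 calls with the smallest adjusted p per direction. Members outside this rule given with values, and Cdk2, were chosen after their values were seen. Members and lists were chosen with earlier results of these data known.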

Additional observations from a re-analysis of the deposited data

Results flagged for a closer look

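In 11 of 49 genes 1 tumour stood apart from the other 8, the gap to the nearest tumour taking up more of the range of the 9 than Dixon's 95% limit for 9 values. The limit marks about 1 gene in 20 by chance when values are normally distributed. It was applied here to unlogged CPM, for which that rate was not tested, and the genes share libraries. The tumour that stood apart was the high one in all 11 genes. Tumour 24 was the high one in 8 of them. Its levels and the gap as a share of the range were 90.2 CPM and 0.776 in Mcm10 (next tumour 30.0 CPM), 103 CPM and 0.645 in Fen1 (44.0 CPM), 302 CPM and 0.575 in Rrm1 (163 CPM), and 43.3 CPM and 0.558 in Prim1 (23.96 CPM). In Gins3 they were 12.4 CPM and 0.541 (7.04 CPM), in Mcm5 210 CPM and 0.521 (114 CPM), in Rpa2 52.1 CPM and 0.521 (32.4 CPM) and in Cdc45 77.4 CPM and 0.516 (42.0 CPM). Tumour 4 was the high one in Orc4, with 121 CPM and 0.695 (next 57.7 CPM), and in Pcna, with 375 CPM and 0.669 (157 CPM). Tumour 20 was the high one in Orc3, with 60.1 CPM and 0.674 (41.3 CPM). Among these genes Mcm10, Cdc45, Rrm1 and Orc3 were called. Without tumour 24, the high one in Mcm10, Cdc45 and Rrm1, these genes were still called. Without tumour 20, the high one in Orc3, Orc3 was still called lower (log2 fold change -0.78, edgeR adjusted p = 0.0111). Orc3 was not called without tumour 24, which did not stand apart in it.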

How the results depend on the processing

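The count of all genes called higher, 1908, was 3799 with DESeq2, 5006 with limma-voom with group weights and 506 to 2486 with 1 library left out. That of all genes called lower, 2438, was 5628 with limma-voom and 1496 to 2753 with 1 library left out. The members called higher, 23 in the main analysis (beside 8.89% of 21456 genes), were 34 by limma-voom (23.3%) and 19 with upper quartile scaling (7.38%). They were 30 by DESeq2 and 18 without a filter on low counts, where 9.78% and 3.98% of 38829 genes were called higher. These 38829 include genes that the main filter removed, so the 2 shares are not comparable with 8.89%. With at least 10 counts in 9 libraries the members called higher were 20 (7.74% of 17257 genes). With 1 library left out they were 7 to 28 (2.26 to 11.6% of all genes). The larger counts of DESeq2 and limma-voom thus came with more calls over all genes, 3799 and 5006 beside 1908. All 24 main calls were among those of DESeq2 and of limma-voom. The 1 member called lower, Orc3, became 0 with a length offset, with a GC offset or with no filter, and 0 to 1 with 1 library left out. The members' median log2 fold change of 1.30 stayed between 1.08 and 1.38 in every alternative. Directions turned only among uncalled members, with main log2 fold changes between -0.25 (Orc5) and 0.39 (Pold1). The log2 fold change of Orc4 was -0.031 with at least 10 counts in 9 libraries, -0.14 by limma-voom, -0.074 with upper quartile scaling and -0.24 to 0.10 with 1 library left out. The log2 fold change of Cdt1 was -0.083 by limma-voom, -0.033 with the GC offset, which was chosen after seeing the data, and -0.012 (without tumour 1) to 0.43 with 1 library left out. The log2 fold change of Cdc7 was -0.055 (without tumour 20) to 0.36 and the log2 fold change of Pold3 -0.12 to 0.047 with 1 library left out. With the GC offset the log2 fold change of Orc5 was 0.077 and the log2 fold change of Pold1 -0.037. Without the 2 farthest tumours r of Cdt1 and Gmnn was -0.29 and that of Rrm1 and Rrm2 0.52; on unlogged CPM r of Dbf4 and Cdc7 was 0.72 (adjusted exact p = 0.0331). The cause of these shifts was not tested. No paired analysis was possible, because the labels pair no tumour with an epithelium library. The replicate number 1 that both groups use is not a pair.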
